A study of Mus musculus with 12 samples.

Results

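The 6 genes Ttr, Enpp2, Ecrg4, Igf2, Wfdc2 and Sostdc1 encode proteins that choroid plexus releases, and they are described here in hippocampal RNA-seq of naturally aged mice. They were taken by symbol from a deposited table of 27833 genes, and all 6 were found. They were chosen because their FPKM (reads scaled for transcript length and sequencing depth) was higher in control libraries than in libraries of mice given pyrroloquinoline quinone (PQQ), so their differences from control are a description and carry no test. The animals were wild-type male C57BL/6J mice of 20 months, and every group received 0.2 mL of saline by oral gavage for 14 days. CON received saline alone, PQQ-L received PQQ at 5 mg/kg/day and PQQ-H received PQQ at 10 mg/kg/day. The study assigned 6 mice to each group, and the libraries numbered 3 for CON, 5 for PQQ-L and 4 for PQQ-H. No young animals were among these libraries, so none of the values compares ages.

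Choroid plexus is a vascular tissue inside the brain ventricles, covered by an epithelium that makes cerebrospinal fluid and releases carrier proteins, enzymes and growth factors into it. It lies against the hippocampus along the lateral ventricle, and Ttr, its best known product, is among the most abundant transcripts of its epithelium. Several of the other genes are not exclusive to it, since oligodendrocytes express Enpp2, and meninges and vessels express Igf2.

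Before the results, the libraries themselves are described. Reads on genes ranged from 29654553 to 38179496 per library, and no pair of libraries within a group was a duplicate. A set of 4 of the 12 libraries stood apart in 10 marker genes of striatal medium spiny neurons, a cell type that hippocampus should lack. CON 1, CON 3, PQQ-H 1 and PQQ-H 2 summed to between 1327 and 3327 FPKM for those markers, whereas the other 8 libraries summed to between 37.2 and 177 FPKM. Hippocampal neuron markers were present in all libraries. They summed to 101 to 183 FPKM in those 4 libraries and to 234 to 463 FPKM in the other 8. The library names also start with the letter L or R, whose meaning the labels do not give, and both letters occur in every group.

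Reference sequence is shown for the promoters of 2 of the genes, as a description of their upstream letters. The higher level in CON that the members share is what they were chosen on, and shared control of them was not tested. A RefSeq promoter table of build GRCm38.p6 held 3 of the 6 members (Ecrg4, Igf2 and Wfdc2), whereas the submitters' processing notes name mm39, and the FPKM table itself has no coordinates. The lines give the 100 bases before the annotated start of Ecrg4 on chr1:43730502-43730601 (plus strand), and before 2 of the annotated starts of Igf2 on chr7:142666817-142666916 and chr7:142657497-142657596 (minus strand). Capitals mark GGGCGG, the GC box bound by Sp1-type factors.
Ecrg4: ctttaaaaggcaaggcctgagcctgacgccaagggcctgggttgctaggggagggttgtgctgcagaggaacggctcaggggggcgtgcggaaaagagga
Igf2, upstream start: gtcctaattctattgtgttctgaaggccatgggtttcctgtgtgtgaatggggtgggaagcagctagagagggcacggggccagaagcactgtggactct
Igf2, downstream start: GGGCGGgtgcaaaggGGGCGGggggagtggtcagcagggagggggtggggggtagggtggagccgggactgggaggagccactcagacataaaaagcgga

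The 250 bases before each start were searched on both strands for TATAAA (the TATA box), TAATCC (the core that Otx-type homeodomain factors recognise), CCAAT and GGGCGG. Over 32851 promoters in the table, 12.4% held TATAAA, 6.25% TAATCC, 33.8% CCAAT and 32.7% GGGCGG. The Ecrg4 window and the upstream Igf2 window held none of the 4. The downstream Igf2 window held GGGCGG at -100 and -85 and CCAAT on the reverse strand at -231, counted from the start. Within these 250 bases the Ecrg4 window had 5 CpG, the upstream Igf2 window 1 and the downstream one 6, against a median of 6.0 over all promoters. The windows of the other annotated starts are not printed because annotated exons overlap them. Those of Igf2 had 10 and 22 CpG, the latter with GGGCGG on the reverse strand at -17, and the 2 of Wfdc2 had 14 CpG each, with GGGCGG on the reverse strand at -53 and -54, which is 1 site seen from neighbouring starts. A match of letters is a description and no evidence of binding.

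Ttr (transthyretin), on chromosome 18, carries thyroxine and the retinol-binding protein in cerebrospinal fluid and blood. Its FPKM was 3615, 1499 and 5315 in CON 1 to CON 3. It was 81.9, 58.1, 95.1, 113 and 42.6 in the PQQ-L libraries and 17.1, 30.02, 25.3 and 12.8 in the PQQ-H libraries. All 3 CON libraries were above every PQQ library, and all 5 PQQ-L libraries were above every PQQ-H library. The means were 3477 ± 1912 (SD, n = 3) in CON, 78.1 ± 28.2 (n = 5) in PQQ-L and 21.3 ± 7.80 (n = 4) in PQQ-H, so the CON mean was 44.5 times the PQQ-L mean and 163 times the PQQ-H mean. By mean FPKM, Ttr stood at place 7 among all genes in CON, at place 763 in PQQ-L and at place 2895 in PQQ-H. It was not absent in the treated groups, where 575 to 5238 reads per library fell on it.

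Enpp2 (autotaxin), on chromosome 15, is the secreted enzyme that makes lysophosphatidic acid from lysophosphatidylcholine. Its FPKM was 370, 236 and 486 in CON, 98.7, 63.8, 75.9, 75.3 and 51.1 in PQQ-L, and 71.5, 60.2, 45.6 and 52.4 in PQQ-H. The CON libraries were above all PQQ libraries, while the ranges of PQQ-L and PQQ-H overlapped. The CON mean of 364 ± 125 (SD, n = 3) was 4.99 times that of PQQ-L (73.0 ± 17.6, n = 5) and 6.34 times that of PQQ-H (57.4 ± 11.1, n = 4). The lowest treated library still had 45.6 FPKM.

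Ecrg4 (augurin), on chromosome 1, encodes a secreted peptide precursor first described in esophageal tissue. Its FPKM was 49.4, 23.3 and 74.8 in CON, 1.88, 4.48, 4.66, 2.37 and 1.88 in PQQ-L, and 0.737, 1.98, 0.703 and 0.362 in PQQ-H. No PQQ library reached the lowest CON library, and only PQQ-H 2 lay within the PQQ-L range. The CON mean of 49.2 ± 25.7 (SD, n = 3) was 16.1 times the PQQ-L mean (3.05 ± 1.40, n = 5) and 52.0 times the PQQ-H mean (0.946 ± 0.711, n = 4). The PQQ-H values rest on 11 to 57 reads per library.

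Igf2, on chromosome 7, is the imprinted insulin-like growth factor that choroid plexus, meninges and vessels release. Its FPKM was 16.1, 20.4 and 36.8 in CON, 15.4, 4.85, 17.8, 7.22 and 7.84 in PQQ-L, and 5.56, 6.51, 5.30 and 3.08 in PQQ-H. PQQ-L 3 lay above CON 1, so CON and PQQ-L overlapped, whereas all 4 PQQ-H libraries lay below CON. The means were 24.4 ± 10.9 (SD, n = 3), 10.6 ± 5.62 (n = 5) and 5.11 ± 1.45 (n = 4), and the CON mean was 2.30 times that of PQQ-L and 4.78 times that of PQQ-H. Igf2 had the smallest difference from CON of the 6 genes in both treated groups.

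Wfdc2, on chromosome 2, encodes a secreted protein with whey acidic protein domains of the protease inhibitor type. Its FPKM was 5.09, 1.37 and 10.1 in CON, from 129, 29 and 240 reads. In each of the 9 PQQ libraries it had at most 1 read, with values of 0 in PQQ-L 1, PQQ-L 2, PQQ-L 3 and PQQ-H 4. Wfdc2 was thus well above its counting limit in CON and at that limit in both treated groups. Summed over libraries it had 398 reads in CON, 2 in PQQ-L and 3 in PQQ-H, and the CON level was 362 times that of PQQ-L (95% exact interval 99.4 to 2996) and 184 times that of PQQ-H (62.6 to 897), intervals that cover counting error only. It passed the filter on mean FPKM through CON alone.

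Sostdc1, on chromosome 12, encodes a secreted antagonist of BMP signalling that also acts on the Wnt pathway. Its FPKM was 13.5, 8.70 and 17.9 in CON, 1.16, 1.21, 2.04, 2.56 and 1.94 in PQQ-L, and 0.877, 1.005, 1.52 and 3.54 in PQQ-H. The CON libraries were above all PQQ libraries, and PQQ-H 4 was the highest of the treated ones. The means were 13.4 ± 4.61 (SD, n = 3), 1.78 ± 0.596 (n = 5) and 1.74 ± 1.23 (n = 4), with CON at 7.51 and 7.71 times the treated means.

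**Figure D1:**
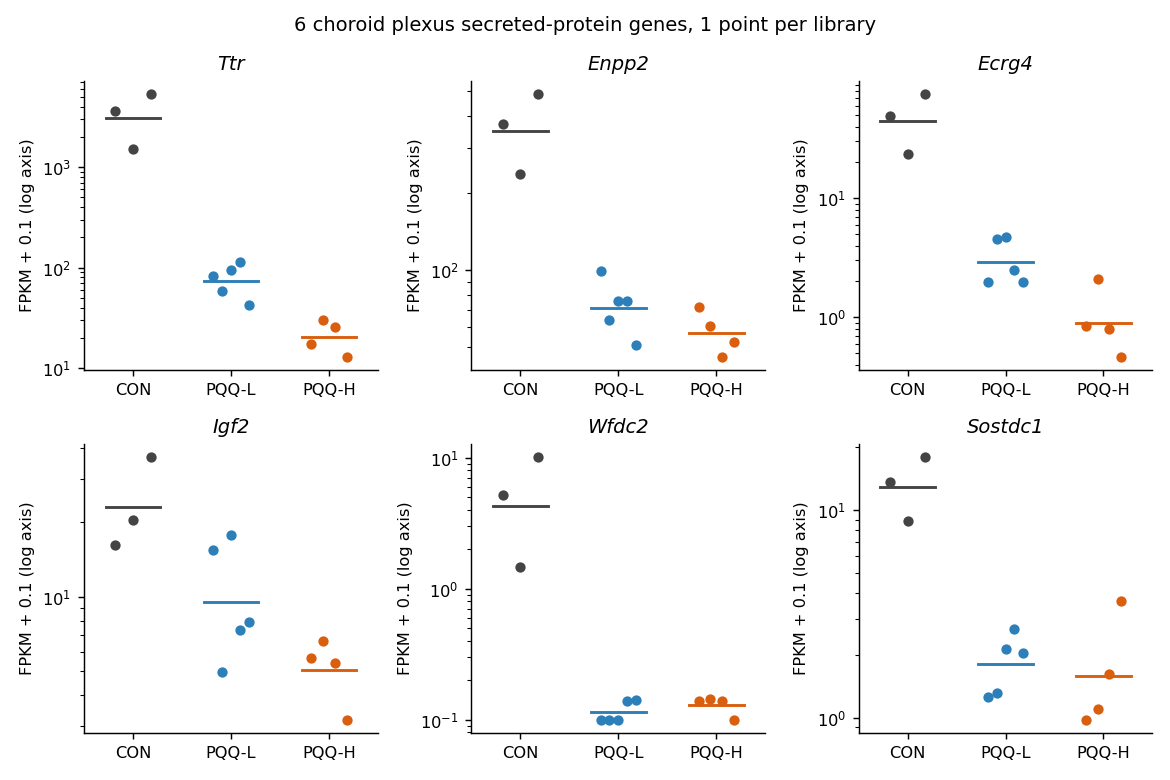
FPKM + 0.1 of each of the 6 genes on a log axis, with 1 point per library and a line at the mean of the log values of CON (3), PQQ-L (5) and PQQ-H (4). CON lies above both treated groups in every panel except for Igf2, where PQQ-L 3 at 17.8 lies above CON 1 at 16.1.

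Counted over the members, 5 of 6 passed both thresholds of limma in PQQ-L vs. CON and 6 of 6 did so for PQQ-H, where 0.471% and 0.819% of all 13796 genes tested did. The thresholds were an absolute log2 fold change over 1 together with an adjusted p (Benjamini-Hochberg) under 0.05. Since the members were chosen on these contrasts, nothing is read from these counts. The call of Igf2 in PQQ-H held in 8 of 21 settings, and without CON 3 the members called in PQQ-H numbered 4. In 5 of 6 and 6 of 6 members no PQQ library reached the CON range, against 7.66% and 5.72% of all genes with that pattern. The differences of mean log2(FPKM + 0.1) ran from -5.38 (Ttr) to -1.27 (Igf2) in PQQ-L and from -7.24 (Ttr) to -2.20 (Igf2) in PQQ-H, with medians of -3.38 and -4.03, or -3.38 and -4.32 with Wfdc2 at its ratio of summed reads, while the median over all genes was -0.03 in both. Both comparisons use the same 3 CON libraries. In bulk tissue, fewer cells of a type in the tissue taken, for whatever reason, and less RNA per cell cannot be told apart.

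The libraries with high striatal markers include 2 of the 3 CON libraries, so the members were also read in the other 8. There CON 2 was the lone control, and it was above all 7 PQQ libraries for all 6 genes. The margin over the highest PQQ library was 13.3 times for Ttr, 33.4 times for Wfdc2, 5.01 times for Ecrg4, 2.46 times for Sostdc1, 2.39 times for Enpp2 and 1.15 times for Igf2. In a limma fit of those 8 libraries, where CON 2 is assumed to vary like the other groups, 0 members passed in PQQ-L and 1, Ttr, passed in PQQ-H against CON, with 1 and 5 genes passing over the whole table, and Wfdc2 was under the filter on mean FPKM. The part of the striatal signal in the size of the members' differences was not tested. Within libraries starting with L, differences from CON ran from -5.34 to -1.85 in PQQ-L and from -6.90 to -2.23 in PQQ-H on the log2 scale. Within those starting with R, which hold 1 CON and 1 PQQ-H library, they ran from -5.70 to -0.55 and from -8.14 to -1.91.

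The order of the 6 levels, compared per length as FPKM, differed between the groups. In CON it was Ttr, Enpp2, Ecrg4, Igf2, Sostdc1 and Wfdc2, and each of the 3 libraries kept this order, although the ranges of Ecrg4 and Igf2, of Igf2 and Sostdc1, and of Sostdc1 and Wfdc2 overlapped. In PQQ-L, Ttr and Enpp2 overlapped, with Ttr the higher in 2 of 5 libraries, and Igf2 stood above Ecrg4 in all 5. In PQQ-H, Enpp2 was above Ttr in 4 of 4 libraries, and Igf2, Sostdc1 and Ecrg4 followed, the neighbours among these 3 overlapping. Within CON the genes also moved together, since CON 3 was the highest and CON 2 the lowest library for 5 of them, and for Igf2 CON 3 was the highest and CON 1 the lowest. The highest CON library was 7.33 times the lowest for Wfdc2, 3.55 times for Ttr, 3.21 times for Ecrg4, 2.28 times for Igf2 and 2.06 times for both Enpp2 and Sostdc1.

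For 4 of the members the proportion to Ttr differed between CON and the treated groups. Enpp2 stood at 9.14% to 15.7% of the Ttr FPKM of the same library in CON, at 66.7% to 121% in PQQ-L and at 180% to 418% in PQQ-H, and no ranges overlapped. Igf2 rested at 0.445% to 1.36%, 6.39% to 18.8% and 21.0% to 32.5%, again apart in all 3 groups. Ecrg4 stayed nearer to Ttr, at 1.37% to 1.56% in CON, 2.10% to 7.71% in PQQ-L and 2.78% to 6.60% in PQQ-H, and its treated groups overlapped. Sostdc1 was at 0.337% to 0.581% in CON, 1.42% to 4.55% in PQQ-L and 3.35% to 27.8% in PQQ-H, where the highest value was PQQ-H 4. Wfdc2 was at 0.0915% to 0.189% in CON and, from at most 1 read per library, at 0 to 0.0964% in PQQ-L and 0 to 0.233% in PQQ-H, so its groups overlapped. These proportions follow from the same values that chose the members, and no test was made. Together the 6 genes took 0.307% to 0.926% of the reads on genes in CON, 0.0310% to 0.0594% in PQQ-L and 0.0249% to 0.0342% in PQQ-H.

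**Figure D2:**
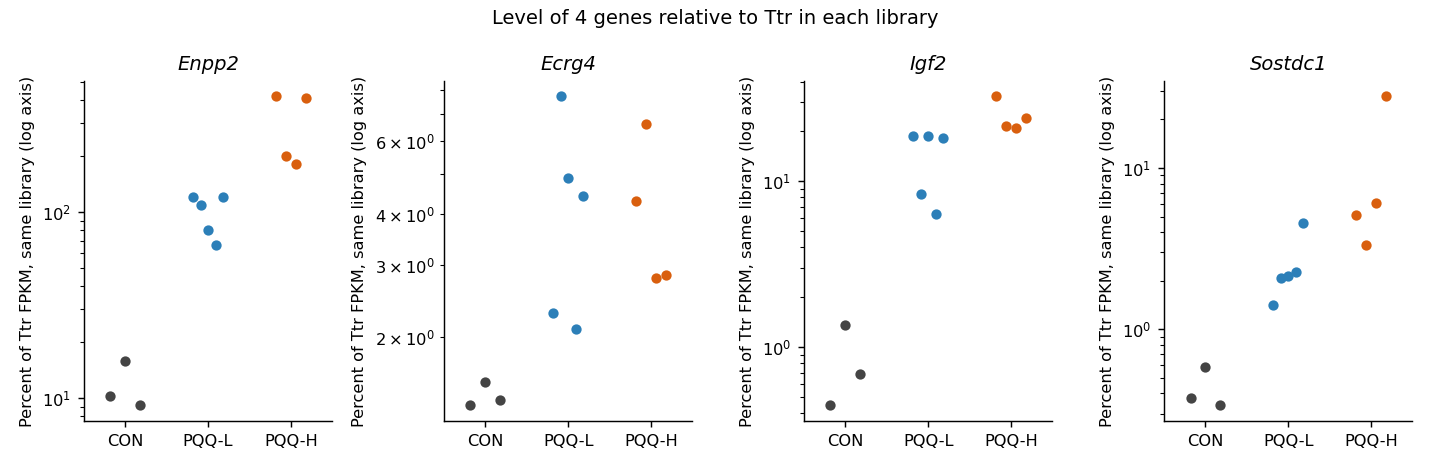
FPKM of Enpp2, Ecrg4, Igf2 and Sostdc1 as a percentage of the Ttr FPKM in the same library, on log axes, with 1 point per library. All 4 genes have their lowest percentages in CON, and Enpp2 exceeds 100% in all 4 PQQ-H libraries.

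The comparison of the doses asks whether the members differed between 5 and 10 mg/kg/day, and the members were not chosen on it. None passed the threshold, and 0.0% of all genes did. Ttr was lower in PQQ-H by a log2 difference of -1.86 (95% interval -2.73 to -0.996), with an unadjusted p of 5.79e-04 and an adjusted p of 0.580 in limma, and its 4 PQQ-H libraries were all below the 5 PQQ-L libraries, a pattern that 3.33% of all genes had. Ecrg4 differed by -1.70 (-2.73 to -0.68, adjusted p = 0.580 in limma) and Igf2 by -0.92 (-1.78 to -0.07, adjusted p = 0.580 in limma), both with overlapping libraries. Enpp2 differed by -0.33 (-0.83 to 0.17, adjusted p = 0.604) and Sostdc1 by -0.18 (-1.02 to 0.65, adjusted p = 0.845, both limma). Wfdc2, with 2 reads in PQQ-L and 3 in PQQ-H, was at the counting limit at both doses, so a difference was not detectable at this depth and no estimate is given. At an unadjusted p below 0.05 there were 3 of 6 members and 8.15% of all genes (1125), and voom on the recovered reads also called 0 genes. Leaving out the libraries high in striatal markers kept PQQ-H 3 and PQQ-H 4 against all 5 PQQ-L libraries. The differences were then -2.03 for Ttr, -2.26 for Ecrg4, -1.20 for Igf2, -0.54 for Enpp2 and 0.43 for Sostdc1. Without Wfdc2, the differences within the L libraries ran from -1.56 (Ttr) to -0.09 (Enpp2), and within the R libraries, with 1 of PQQ-H, from -2.92 (Ecrg4) to 1.26 (Sostdc1), with Ttr at -2.58. The lower level in PQQ-H was not particular to the members. Of 18 choroid plexus epithelium markers 16 were lower and 2 higher, with a median of -0.95. All 9 ependyma markers tested were lower, with a median of -1.27, while all 10 oligodendrocyte markers were higher. All 10 striatal markers were higher, with a median of 2.12. Of 10 hippocampal neuron markers 9 were lower and 1 higher, with a median of -0.73. None of these markers was called.

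**Figure D3:**
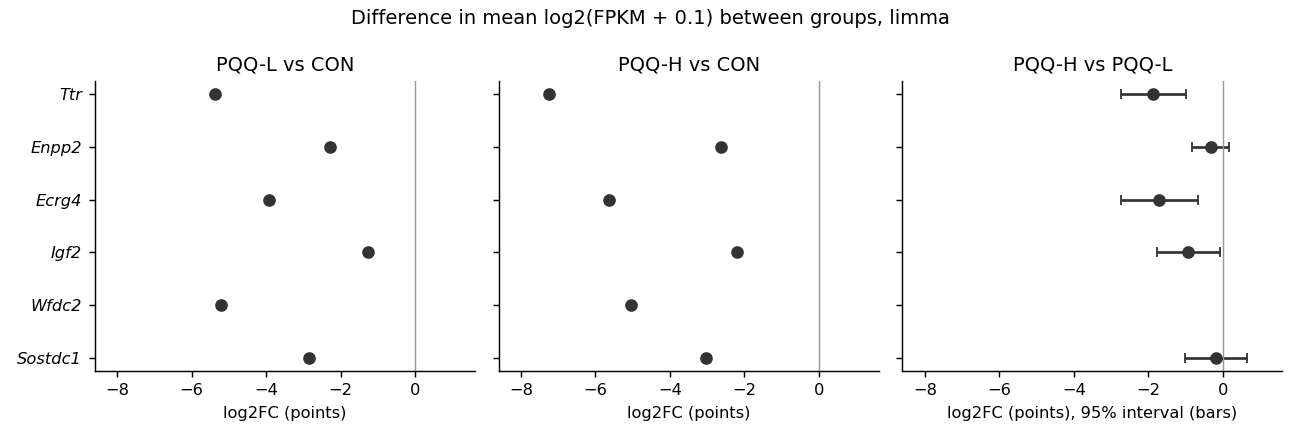
Difference in mean log2(FPKM + 0.1) of the 6 genes for each treated group against CON and for the higher dose against the lower, with points for the limma estimate and bars for its 95% interval in the comparison of doses only, where Wfdc2 is left out because it had at most 1 read per library. The values run from -5.38 to -1.27, from -7.24 to -2.20 and from -1.86 to -0.18, and the Wfdc2 points depend on the pseudocount of 0.1.

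Genes that work with the members were read from 6 lists of receptors, carriers, binding proteins and antagonists, 107 genes in all, of which 79 were tested. Of these, 1 passed against CON in PQQ-L (1.27%) and 4 did in PQQ-H (5.06%), and 0 passed between the doses, beside 0.471% and 0.819% of all genes. These calls were all lower, as was every call in the whole table (65 and 113 genes). The lists were written with earlier results of these data known. The counts, and the p-values given for their genes against CON, are therefore a description. The thyroid hormone and retinol carriage list had 0 of 15 called, with medians of 0.11 and -0.22 in PQQ-L and PQQ-H on the log2 scale. The lysophosphatidic acid list, the receptors and lipid phosphatases around the Enpp2 product, had 0 of 12 called, with medians of -0.28 and -0.20. The augurin receptor list had 0 of 4 called. Thra, Plpp3 and Lrp1, the most abundant genes of these 3 lists, had means of 120, 78.8 and 22.7 FPKM in CON and 145, 82.5 and 20.4 in PQQ-H.

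Igfbp2, an IGF-binding protein that choroid plexus releases, was the 1 partner gene called in both treated groups. Its mean fell from 46.1 ± 16.3 FPKM (SD, n = 3) in CON to 14.6 ± 5.61 (n = 5) in PQQ-L and 10.5 ± 1.40 (n = 4) in PQQ-H, log2 differences of -1.67 (adjusted p = 0.0283, limma) and -2.08 (adjusted p = 0.00728, limma). The PQQ-L call was lost with the letter as covariate, with the replicate block, and without CON 1, CON 3, PQQ-L 2, PQQ-L 4, PQQ-L 5 or PQQ-H 4. The IGF list had 14 genes tested, with medians of -0.01 and -0.18. Igfbp5, its most abundant gene by the mean over all 12 libraries, stood at 34.9 FPKM in CON and 25.1 in PQQ-H.

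In the list of protease inhibitors, 0 of 15 were called in PQQ-L and 2 in PQQ-H, with medians of -0.51 and -0.54. Spint2, a Kunitz inhibitor of serine proteases that is anchored in the membrane and so is not a secreted protein in the strict sense, went from 22.8 ± 9.50 FPKM in CON to 6.74 ± 1.78 in PQQ-H (log2 difference -1.69, adjusted p = 0.0268, limma). A2m, a broad protease trap, differed by -1.60 (adjusted p = 0.0385, limma). Cst3 (cystatin C), the most abundant gene of the list, had 2250 ± 530 FPKM in CON, 1747 ± 105 in PQQ-L and 2287 ± 565 in PQQ-H. In the BMP and Wnt list, 0 and 1 of 19 were called, with medians of 0.06 and -0.05, and 11 genes were higher in PQQ-L, against 8 for PQQ-H. The 1 called was Bmp4, a ligand of the pathway that Sostdc1 restrains, at -1.42 (adjusted p = 0.0192, limma). Its means were 1.10 FPKM in CON, 0.460 in PQQ-L and 0.337 in PQQ-H. It passed the filter on mean FPKM through CON alone. Dkk3, a secreted protein of the Dickkopf family and the most abundant gene of the list, had higher means in the treated groups, at 79.0 ± 41.3 FPKM in CON, 133 ± 31.1 in PQQ-L and 113 ± 39.9 in PQQ-H, with log2 differences of 0.90 and 0.63 that did not pass (adjusted p = 0.237 and 0.693, limma). Without CON 3 the 4 calls in PQQ-H vs. CON became 0, without CON 1 they became 1, and in the 8 libraries low in striatal markers there were 0 in both comparisons.

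Of 20 other genes for proteins that choroid plexus secretes, 19 were lower in each treated group, with medians of -0.63 and -0.69, and 4 and 5 were called. Over all genes tested, 53.9% were lower in PQQ-L and 55.6% in PQQ-H, and 0.471% and 0.819% were called. Folr1, the folate receptor of the epithelium, had a mean of 15.6 FPKM in CON, 0.769 in PQQ-L and 0.0992 in PQQ-H. F5 (coagulation factor V) had 2.27, 0.297 and 0.112, and Col9a3, a collagen IX chain, had 10.9, 2.74 and 2.38. The others called were Igfbp2 in both groups and the membrane-anchored Spint2 in PQQ-H. This list was also written with earlier results of these data known, so its counts are a description. The lists share genes, so their counts are not independent. Igfbp2 and Spint2 are also partner genes, and Folr1 and F5 are also among the choroid plexus epithelium markers below. F5 passed the filter on mean FPKM through CON alone.

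The genes whose profile over the 12 libraries lay nearest to each member were found by the root mean square difference of log2(FPKM + 0.1), centred for each gene. This distance includes the difference between CON and treated libraries on which the members were chosen, so it is a description only. For Ttr these were the keratin genes Krt18 (0.58) and Krt8 (0.62), and Folr1 (0.73). For Ecrg4 they were Folr1 (0.42), Krt8 (0.53) and Prr32 (0.53), and for Wfdc2 Defb11 (0.58), Cldn3 (0.67) and the water channel gene Aqp1 (0.69). Defb11 had at most 4 reads and Cldn3 at most 9 in a treated library, so their distances to Wfdc2 depend on the pseudocount. In PQQ-H libraries Krt8 had at most 2 reads, Prr32 5, Krt18 6, Aqp1 10 and Folr1 11. The distances to these genes thus also depend on the pseudocount. For Enpp2 they were Gpx8 (0.26), the ion channel gene Trpv4 (0.27) and Col9a3 (0.29), for Igf2 Cdkn1c (0.41), Sgms2 (0.41) and Steap2 (0.46), and for Sostdc1 Rdh5 (0.37), Pcolce (0.46) and Cox8b (0.50). Between members, Igf2 and Enpp2 were the nearest pair (0.63), Sostdc1 and Enpp2 came next (0.68) and Igf2 and Ttr were the farthest apart (2.08). Cdkn1c, like Igf2, is an imprinted gene on chromosome 7.

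Most choroid plexus epithelium markers were lower in the treated groups too. Of 20 such genes 18 were tested, all 18 had a lower mean log2 value in both, and 13 and 14 were called, with medians of -3.25 and -4.15, beside 53.9% and 55.6% of all genes lower and 0.471% and 0.819% called. The list was written with earlier results of these data known, so these counts are a description. Some called genes passed the filter on mean FPKM through CON alone, such as Kcne2 (means of 10.3, 0.0919 and 0.0124 FPKM in CON, PQQ-L and PQQ-H). Kl, Prlr, Car12 and Slc13a4 were called in neither comparison. Kl (klotho) was the most abundant gene of the list by the mean over all 12 libraries. It had 0.750, 13.1 and 27.4 FPKM in CON, 1.73 to 9.20 in PQQ-L and 1.34 to 14.0 in PQQ-H. CON 1 was thus below all treated libraries for Kl, and CON 1 was also the lowest of all libraries for Prlr (0.0342 FPKM). Their summed FPKM ranged from 78.3 to 216 in CON, from 14.4 to 26.2 in PQQ-L and from 11.8 to 19.3 in PQQ-H. Without Kl these ranges were 65.2 to 188, 10.3 to 24.4 and 5.37 to 10.96. None was at 0 in all libraries of a group, while 0, 3 and 6 of the 20 were at 0 in at least 1 library of CON, PQQ-L and PQQ-H. Ependyma markers, the cells that line the ventricle, summed to 48.2 to 70.4, 24.5 to 49.5 and 12.0 to 33.9 FPKM, with 0 and 4 of 9 called. Meningeal fibroblast markers summed to 11.2 to 49.5 in CON, 10.9 to 38.9 in PQQ-L and 8.15 to 11.2 in PQQ-H, with 1 and 2 of 9 called, and CON 1 was the lowest CON library for them. Oligodendrocyte markers (1262 to 3048, 1104 to 1853 and 1066 to 2847) and endothelial markers (86.2 to 128, 85.6 to 98.9 and 79.4 to 141) had overlapping groups and 0 calls. Hemoglobin genes summed to 107 to 313, 55.1 to 251 and 122 to 600, also with 0 calls. The part of these markers in the members' differences was not tested.

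**Figure D4:**
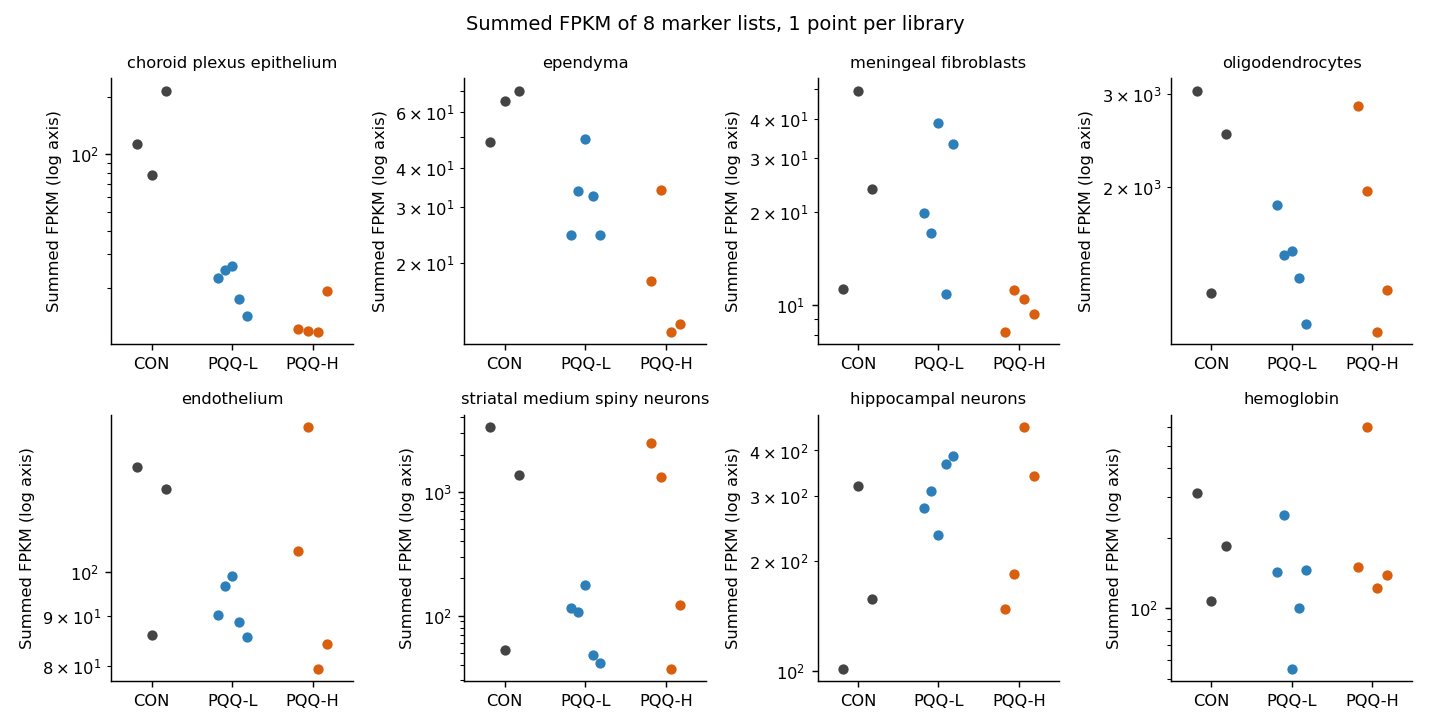
Summed FPKM of 8 lists of cell type markers on log axes, with 1 point per library of CON, PQQ-L and PQQ-H. Choroid plexus epithelium markers lie higher in CON (78.3 to 216) than in either treated group, and striatal markers lie above 1000 in 2 CON and 2 PQQ-H libraries.

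The counting of reads sets a limit on some members. GENCODE M21 places antisense or overlapping genes at Enpp2 (Gm26684), Ecrg4 (Gm29155) and Igf2 (Gm49394, Mir483 and Igf2os). The strand setting of the counting is not given in the sources used here. How reads in the overlapping stretches were counted is therefore not known.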

How the data were processed

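Hippocampal RNA of 12 libraries was sequenced on an Illumina NovaSeq. The authors used fastp for filtering, HISAT2 for mapping and HTSeq-count for counting, and their processing notes name mm39. The authors deposited FPKM values per gene as 1 table, in which 174 genes are at 0 throughout. Libraries were assigned by GEO's treatment labels. Separate mice are not stated for each library, so p-values measure the spread between these libraries.

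Whole reads were recovered from the FPKM steps (100% of 25563 genes at a tolerance of 0.02). Limma 3.58.1 in R 4.3.3 was fitted to log2(FPKM + 0.1) of 13796 genes whose mean FPKM was 0.5 or more, with all 12 libraries in 1 fit, and a fold change on this scale understates that of low genes. Calls needed an absolute log2 fold change over 1 together with an adjusted p (Benjamini-Hochberg) under 0.05. Scripts used Python 3.11.15 with numpy 2.4.6, pandas 2.3.3, scipy 1.17.1 and matplotlib 3.10.9, and were tested on simulated data. Libraries of a group were checked for duplicates by chi-square over genes (19 pairs, at least 18.8 for each degree of freedom).

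The members and lists were chosen with earlier results of these data known. The text names the members, each partner or secreted-protein list's called genes and its most abundant gene, and each member's 3 nearest genes. The most abundant gene is the one with the highest mean FPKM over all 12 libraries. Alternatives were other pseudocounts (1 and 0.01), no filter, median-of-ratios scaling, the first letter as covariate, the replicate block and each library left out. Voom on the reads of genes with 10 or more reads on average and the fit of 8 libraries were added after seeing the data.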

Additional observations from a re-analysis of the deposited data

Results flagged for a closer look

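In groups of 4 or 5 libraries, 1 library was examined for standing far from the others in 87 groups of 47 named genes. In 8 cases it did, none of them in the 6 members. For independent, normally spread values about 1 in 20 groups would be flagged. These groups share libraries and some values are near 0, so that rate may not hold here. PQQ-L 3 stood high in 6 of the 8 cases. Its FPKM was 6.42 for Cdkn1c (others 2.16 to 3.38), 0.199 for Cldn3 (0 to 0.0232), 0.379 for Kcne2 (0 to 0.0482), 96.7 for Plpp3 (79.6 to 82.8), 14.7 for Spint2 (7.04 to 8.63) and 0.505 for Steap1 (0 to 0.140). PQQ-H 4 stood high for Cox8b at 1.77 (others 1.02 to 1.11) and for Steap1 at 0.529 (0.0468 to 0.0762).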

How the results depend on the processing

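Over 21 settings (20 for Wfdc2, which was under the filter in the fit of 8 libraries) the log2 differences of the members from CON never changed sign, 24 single results lost their call and the cause was not tested. Igf2 in PQQ-H vs. CON was called in 8 of 21 settings, and Ttr in PQQ-H vs. CON in 21 of 21. Genes called in PQQ-L vs. CON numbered 65, 112 without the filter, 123 with voom, 1 in the 8 libraries low in striatal markers and from 20 (without CON 1) to 865 (without CON 2), with 33 without CON 3 and 43 without PQQ-L 1. In PQQ-H vs. CON they numbered 113, 170 without the filter, 5 in those 8 libraries and from 47 (without CON 3) to 153, and leaving out CON 1 gave 58, PQQ-H 3 gave 68 and PQQ-H 4 gave 67. Partner genes called in PQQ-L vs. CON numbered 1, 2 with a pseudocount of 1 or voom, 0 with the letter as covariate or in those 8 libraries, and 0 to 18 with each library left out (18 when CON 2 was left out, 3 for PQQ-L 3, 2 for PQQ-H 3, and 0 for CON 1, CON 3, PQQ-L 2, PQQ-L 4, PQQ-L 5 or PQQ-H 4). In PQQ-H vs. CON they numbered 4, 2 with the letter as covariate, 0 in those 8 libraries and 0 (without CON 3) to 5, and 1 was called when CON 1, PQQ-H 3 or PQQ-H 4 was left out. PQQ-H vs. PQQ-L gave 0 genes in all 21 settings, with an adjusted p for Ttr from 0.308 to 0.819. Sostdc1 in that comparison, never called, turned to 0.05 without PQQ-H 1 and 0.43 in the 8 libraries. The Wfdc2 log2 difference in PQQ-L moved from -7.76 to -2.42 with the pseudocount.

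Over 10 same-numbered pairs of libraries the deviations from the group means correlated from -0.619 to 0.717, and 4 were over 0.1. The highest pair was CON 1 with PQQ-H 1, both high in striatal markers. The lowest was CON 2 with PQQ-H 2, of which only PQQ-H 2 was high. These correlations hold the striatal signal, so they cannot decide whether the replicate numbers pair the samples. With the replicate block, 23 genes were called for PQQ-L and 48 for PQQ-H against CON, with 0 and 2 partner genes.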
